A study of Mus musculus with 30 samples.

Results

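Targets and feedback inhibitors of the ERK pathway, 10 genes in all, were followed in mouse mammary glands with and without the Her2/Neu oncogene: Dusp6, Dusp4, Etv4, Etv5, Spry2, Spry4, Ier3, Epha2, Phlda1 and Egr1. They were taken by name, with earlier results of these data known. Of these 10 genes 9 have a probe in the platform annotation, among 12147 named genes in all. Spry4 was not analysed here. The 9 genes are read by 10 probes, and 8 of them had values on enough arrays to be tested among 11463 genes. Spry2 was the exception and is described by its values alone.

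RNA from inguinal mammary glands was measured in 4 groups, all of 129sv background and 19 weeks old. They were 9 Her2/Neu+/IFNAR1-/- glands, which carry the oncogene and lack IFNAR1, a chain of the type I interferon receptor, 6 Her2/Neu+ glands with the receptor intact, 8 IFNAR1-/- glands without the oncogene, and 7 WT glands with neither change. Each gland was labelled with Cy5 and hybridised to its own array with the same Cy3-labelled universal mouse reference RNA, so every value is a log2 ratio of gland over reference, and a negative value is a level below the reference. The promoter that drives the Her2/Neu transgene and the build of the IFNAR1 allele are not given in the sources used here, and the labels number samples without saying whether each is a separate mouse.

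ERBB receptors such as HER2 signal through RAS, RAF and MEK to the kinase ERK, which enters the nucleus and switches on a set of genes within minutes to hours. Some of them encode transcription factors, such as EGR1 and the ETS factors ETV4 and ETV5, which carry the signal on. Others encode inhibitors that shut it down again: DUSP6 and DUSP4 remove phosphate from ERK, and Sprouty proteins act upstream of it. In the mammary epithelium this pathway is known for its part in duct growth and in tumours driven by ERBB2.

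The arrays held between 17485 and 20801 values each, with array medians between -0.12 and -0.0031. No intensities come with them, so how bright a spot was is not known. Precision is set by how far arrays of a group spread and by how many each group has. On each array between 2639 and 10385 values are exact copies of another value of that array. These are called repeated values, and how they arose is not stated. Markers of skeletal muscle were high on 3 IFNAR1-/- arrays (41, 42 and 44) and on 1 Her2/Neu+/IFNAR1-/- array (106), with list means between 4.09 and 5.16 against at most 0.91 on the other arrays. Markers of fat were high everywhere, with list means between 4.62 and 5.41. The order of samples and their block numbers point to 8 slides in 2 sets of 15 arrays, although the labels do not state it. No such slide holds both groups of a pairwise comparison, so group and slide cannot be told apart there. Because whole glands were measured, fewer cells of a type and less RNA per cell cannot be told apart either.

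Promoter sequences of 5 of these genes were taken from the RefSeq table for GRCm38.p6 and searched for motifs. Those of the 3 genes that passed the test between 2 groups are shown. Each runs 5′ to 3′ on the gene's strand and ends at the base before the transcript start. Ier3 lies at chr17:35821463-35821712 on the plus strand, Epha2 at chr4:141300971-141301220 on the plus strand and Dusp6 at chr10:99262981-99263230 on the plus strand. Capitals mark the letters of a motif found on either strand.
Ier3: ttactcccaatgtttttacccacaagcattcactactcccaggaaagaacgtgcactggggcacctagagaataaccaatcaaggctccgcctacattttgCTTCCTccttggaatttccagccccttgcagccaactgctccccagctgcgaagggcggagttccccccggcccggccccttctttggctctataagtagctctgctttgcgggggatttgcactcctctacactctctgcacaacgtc
Epha2: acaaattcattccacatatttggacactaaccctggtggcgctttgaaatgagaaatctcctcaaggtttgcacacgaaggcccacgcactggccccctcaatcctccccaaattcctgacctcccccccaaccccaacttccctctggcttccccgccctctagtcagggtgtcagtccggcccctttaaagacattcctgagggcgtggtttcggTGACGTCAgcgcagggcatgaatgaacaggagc
Dusp6: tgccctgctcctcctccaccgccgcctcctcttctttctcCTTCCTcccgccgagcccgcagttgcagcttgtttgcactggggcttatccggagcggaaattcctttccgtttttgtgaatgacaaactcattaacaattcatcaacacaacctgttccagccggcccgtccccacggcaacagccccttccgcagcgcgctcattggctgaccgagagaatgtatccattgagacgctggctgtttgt
The search covered AGGAAG and CCGGAAG, cores bound by ETS factors, TGACGTCA and TGANTCA, sites of the CREB and AP-1 families, and the CArG box of serum response factor. AGGAAG was found on the opposite strand in Ier3, from 149 to 144 bases before the start, and in Dusp6, from 210 to 205 bases before it, where the printed strand reads CTTCCT. TGACGTCA, which reads the same on both strands, was found in Epha2 from 33 to 26 bases before the start. None of these motifs was found in the windows of Etv5 and Spry2, which are not shown. Among 32851 promoter windows of the same length, AGGAAG occurred in 29.5%, CCGGAAG in 6.91%, TGACGTCA in 1.55%, TGANTCA in 6.75% and the CArG box in 1.47%. No match overlapped another.

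Ier3, an immediate early gene whose product affects cell survival, was far above WT in Her2/Neu+ glands and far above IFNAR1-/- in Her2/Neu+/IFNAR1-/- glands. Its lowest, median and highest log2 ratios were -2.92, -1.35 and 1.56 in Her2/Neu+/IFNAR1-/- glands, -0.96, -0.38 and 0.99 in Her2/Neu+ glands, -5.28, -3.68 and -2.31 in IFNAR1-/- glands and -5.11, -3.93 and -2.44 in WT glands. The 6 Her2/Neu+ arrays did not overlap with the 7 WT arrays and stood higher, and 7 of 9 Her2/Neu+/IFNAR1-/- arrays lay above all 8 IFNAR1-/- arrays, the exceptions being 102 and 104. The rise was 3.15 ± 0.59 (SE, log2 scale), or 8.89-fold, in Her2/Neu+/IFNAR1-/- against IFNAR1-/- glands (limma adjusted p = 0.00725). In Her2/Neu+ against WT glands it was 3.67 ± 0.67, or 12.8-fold (limma adjusted p = 0.0130). Of the 30 values of Ier3, 6 were repeated values, 3 of them in Her2/Neu+/IFNAR1-/- and 2 in Her2/Neu+ glands. With the slide as a random block both calls were lost, at 3.04 (adjusted p = 0.0594) and 3.55 (adjusted p = 0.111), and the second was also lost without Her2/Neu+ 118 (3.44, adjusted p = 0.0753). The first was lost as well when the fit held just these 2 groups (3.15, adjusted p = 0.0553), without the arrays of most repeated values (2.61, adjusted p = 0.0778) and within array set 1 (2.48, adjusted p = 0.582) and set 2 (3.52, adjusted p = 0.0702). The second was lost within set 1 (3.80, adjusted p = 0.446) and set 2 (3.32, adjusted p = 0.0666).

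Epha2, a receptor tyrosine kinase for ephrins that is induced by ERK signalling, followed a similar order of groups. Its lowest, median and highest values were -3.16, 0.53 and 2.23 in Her2/Neu+/IFNAR1-/- glands, -1.32, 1.22 and 1.56 in Her2/Neu+ glands, -3.59, -1.90 and -1.51 in IFNAR1-/- glands and -3.74, -2.89 and -1.49 in WT glands. As for Ier3, the Her2/Neu+ arrays stood higher than those of WT without overlap, and 7 of 9 Her2/Neu+/IFNAR1-/- arrays lay above all IFNAR1-/- arrays, here with 103 and 104 as the exceptions. The change was 2.17 ± 0.58 (SE, log2 scale) in Her2/Neu+/IFNAR1-/- against IFNAR1-/- glands, which just missed the threshold (limma adjusted p = 0.0532). It rose by 3.41 ± 0.66, or 10.7-fold, in Her2/Neu+ against WT glands (limma adjusted p = 0.0191). This call was lost with the slide as a random block (3.35, adjusted p = 0.111) and without WT 54 or 56 or Her2/Neu+ 118, 119 or 120 (3.26 to 3.34, adjusted p between 0.0519 and 0.0753), and within array set 1 (3.87, adjusted p = 0.461) and set 2 (2.56, adjusted p = 0.119). None of the values of Epha2 was a repeated value.

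**Figure D1:**
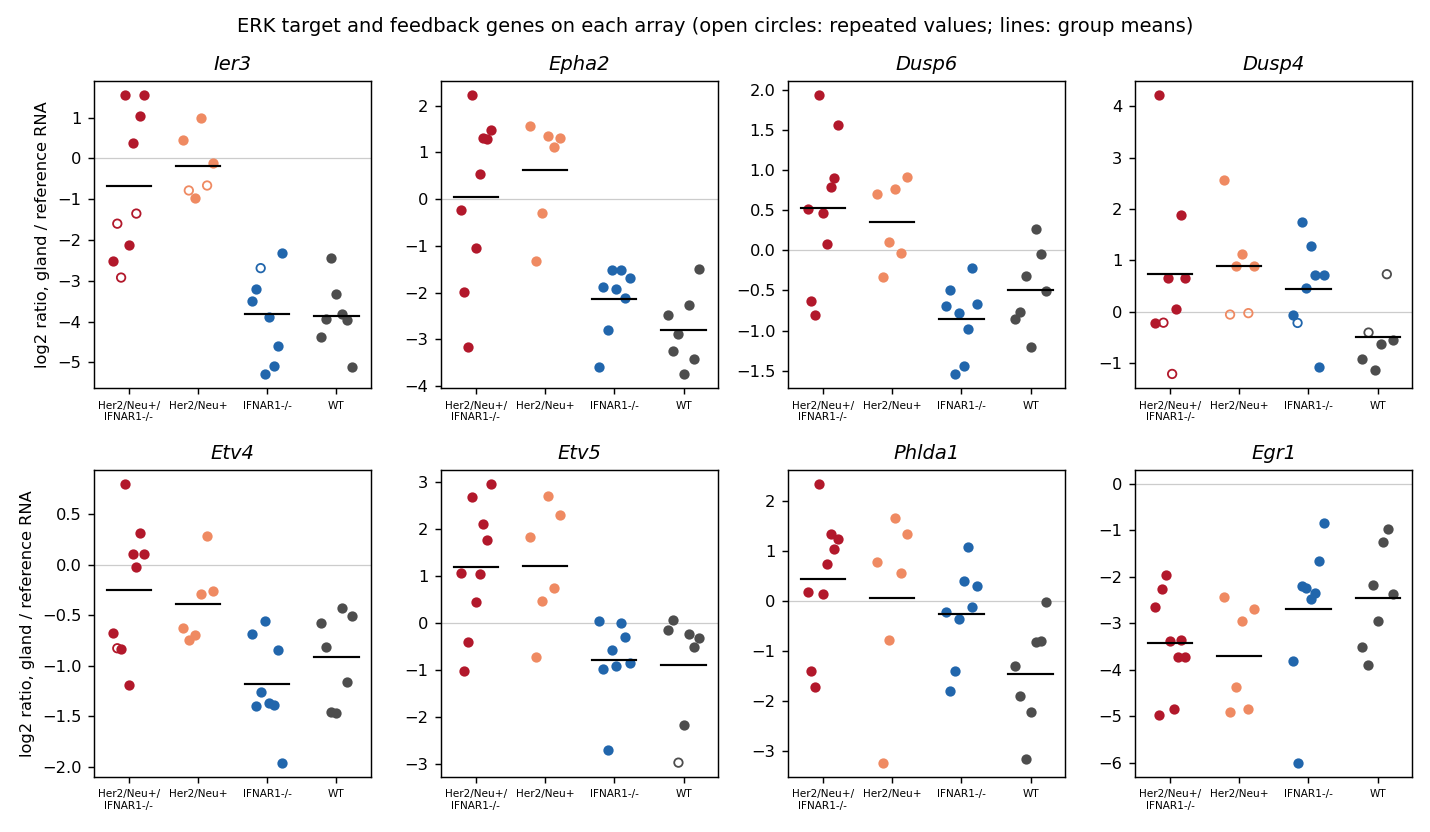
Log2 ratios of gland over reference RNA for the 8 tested genes, 1 point per array, in Her2/Neu+/IFNAR1-/- (9 arrays), Her2/Neu+ (6), IFNAR1-/- (8) and WT (7) glands, with lines at group means and open circles for repeated values. The scale of the vertical axis differs between panels. Ier3 and Epha2 show no overlap between the 6 Her2/Neu+ and the 7 WT arrays, while the groups overlap widely for Dusp4 and Egr1.

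Of the feedback phosphatases, Dusp6, which acts on ERK in the cytoplasm, was higher with the oncogene, and Dusp4, which acts on MAP kinases in the nucleus, passed no test. The lowest, median and highest values of Dusp6 were -0.81, 0.51 and 1.93 in Her2/Neu+/IFNAR1-/- glands, -0.33, 0.40 and 0.91 in Her2/Neu+ glands, -1.54, -0.74 and -0.22 in IFNAR1-/- glands and -1.21, -0.50 and 0.26 in WT glands. Against IFNAR1-/- glands, 7 of 9 Her2/Neu+/IFNAR1-/- arrays lay above all 8, and 103 and 104 lay within their range. Dusp6 rose by 1.38 ± 0.31 (SE, log2 scale), or 2.61-fold, in Her2/Neu+/IFNAR1-/- against IFNAR1-/- glands (limma adjusted p = 0.0303). In Her2/Neu+ against WT glands the change was 0.84 ± 0.36 (limma adjusted p = 0.323), with 3 of 6 arrays above all WT arrays. The call in the first comparison was lost in 6 of the 30 fits that left out 1 array, those without Her2/Neu+/IFNAR1-/- 105, 108, 109 or 110 or IFNAR1-/- 44 or 46 (1.21 to 1.39, adjusted p between 0.0512 and 0.0581), and with the slide as a random block (1.37, adjusted p = 0.128). Further losses came under quantile normalization (1.21, adjusted p = 0.0670), when the fit held just these 2 groups (1.38, adjusted p = 0.0702), with array position as a covariate (1.33, adjusted p = 0.0551), within array set 1 (1.47, adjusted p = 0.527) and set 2 (1.39, adjusted p = 0.100), without the arrays high in muscle markers (1.34, adjusted p = 0.0703) and without those of most repeated values (1.05, adjusted p = 0.138), which makes 8 of 19 alternatives.

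Dusp4 had its lowest, median and highest values at -1.21, 0.35 and 4.22 in Her2/Neu+/IFNAR1-/- glands (8 values), -0.05, 0.89 and 2.56 in Her2/Neu+ glands, -1.08, 0.59 and 1.74 in IFNAR1-/- glands and -1.13, -0.59 and 0.73 in WT glands (6 values). The groups overlapped throughout, and 7 of its 28 values were repeated values. The highest value belongs to Her2/Neu+/IFNAR1-/- 103, an array that was among the lowest of its group for Dusp6, Etv5, Epha2 and Phlda1. The changes were 0.28 ± 0.55 (SE) in Her2/Neu+/IFNAR1-/- against IFNAR1-/- glands and 1.38 ± 0.64 in Her2/Neu+ against WT glands, with limma adjusted p = 0.825 and 0.383.

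Spry2, a Sprouty inhibitor of receptor signalling, was read on 17 arrays, and 10 of these values were repeated values. It had 3 values in Her2/Neu+/IFNAR1-/- glands (-0.01, 2.61 and 4.24), 3 in Her2/Neu+ glands (-0.04, 0.91 and 2.09), 5 in IFNAR1-/- glands (from -0.03 to 4.89) and 6 in WT glands (from -0.18 to 0.69). Every group therefore held values near 0, and 5 of the 6 WT values were repeated values.

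Among the ETS transcription factors, Etv5 and Etv4 were higher with the oncogene on most arrays. Etv5 had its lowest, median and highest values at -1.02, 1.05 and 2.96 in Her2/Neu+/IFNAR1-/- glands, -0.72, 1.29 and 2.69 in Her2/Neu+ glands, -2.70, -0.72 and 0.03 in IFNAR1-/- glands and -2.97, -0.32 and 0.05 in WT glands. On 7 of 9 Her2/Neu+/IFNAR1-/- arrays it stood above all IFNAR1-/- arrays, and on 5 of 6 Her2/Neu+ arrays above all WT arrays. The 3 exceptions were Her2/Neu+/IFNAR1-/- 103 and 104 and Her2/Neu+ 114. Its change was 1.97 ± 0.55 (SE, log2 scale) in Her2/Neu+/IFNAR1-/- against IFNAR1-/- glands and 2.12 ± 0.63 in Her2/Neu+ against WT glands, and neither passed (limma adjusted p = 0.0659 and 0.158).

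Etv4 varied over a narrower range. Its lowest, median and highest values were -1.19, -0.02 and 0.80 in Her2/Neu+/IFNAR1-/- glands, -0.75, -0.46 and 0.28 in Her2/Neu+ glands, -1.96, -1.32 and -0.55 in IFNAR1-/- glands and -1.47, -0.82 and -0.43 in WT glands. Above all IFNAR1-/- arrays lay 5 of 9 Her2/Neu+/IFNAR1-/- arrays, and above all WT arrays lay 3 of 6 Her2/Neu+ arrays. The changes were 0.93 ± 0.26 and 0.53 ± 0.29 (SE) in these comparisons (limma adjusted p = 0.0624 and 0.485). Etv4 is the mean of 2 probes, and the second gave repeated values on 7 of 9 Her2/Neu+/IFNAR1-/-, 4 of 6 Her2/Neu+, 6 of 8 IFNAR1-/- and 7 of 7 WT arrays. The first probe averaged -0.70 ± 0.95 (SD) in Her2/Neu+/IFNAR1-/-, -0.53 ± 0.91 in Her2/Neu+, -1.60 ± 0.92 in IFNAR1-/- and -1.42 ± 0.99 in WT. The second averaged 0.20 ± 0.69 in Her2/Neu+/IFNAR1-/-, -0.25 ± 0.36 in Her2/Neu+, -0.76 ± 0.70 in IFNAR1-/- and -0.41 ± 0.53 in WT. Both probes were thus higher on average in the groups with the oncogene. For the first, the difference was less than the spread between arrays of a group in both comparisons. For the second, it was less than that spread in Her2/Neu+ against WT glands.

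Phlda1, which encodes a pleckstrin homology-like domain protein, and Egr1, a zinc finger factor of the immediate early response, passed in none of the comparisons of the fit without covariates. Phlda1 had its lowest, median and highest values at -1.74, 0.73 and 2.34 in Her2/Neu+/IFNAR1-/- glands, -3.24, 0.65 and 1.65 in Her2/Neu+ glands, -1.80, -0.18 and 1.07 in IFNAR1-/- glands and -3.17, -1.30 and -0.04 in WT glands. The Her2/Neu+ range covers that of WT on both sides, because Her2/Neu+ 114 had the lowest value of all 30 arrays. Its changes were 0.70 ± 0.60 (SE) in Her2/Neu+/IFNAR1-/- against IFNAR1-/- and 1.51 ± 0.68 in Her2/Neu+ against WT glands (limma adjusted p = 0.561 and 0.367).

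Egr1 was the 1 gene of the 8 whose estimate was negative in both oncogene comparisons. Its lowest, median and highest values were -4.98, -3.39 and -1.97 in Her2/Neu+/IFNAR1-/- glands, -4.91, -3.66 and -2.43 in Her2/Neu+ glands, -6, -2.30 and -0.86 in IFNAR1-/- glands and -3.90, -2.37 and -0.98 in WT glands, where -6 is the limit of the scale. The groups overlapped, and the changes of -0.73 ± 0.57 and -1.25 ± 0.66 (SE) did not pass (limma adjusted p = 0.516 and 0.456). All 30 arrays read it below the reference RNA.

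Counted over the 8 tested genes, 2 rose in Her2/Neu+/IFNAR1-/- against IFNAR1-/- glands (Ier3 and Dusp6) and none fell, where 0.942% of the 11463 genes rose and 1.31% passed in either direction. In Her2/Neu+ against WT glands 2 rose (Ier3 and Epha2) and none fell, where 0.113% of all genes rose and 0.131% passed in either direction. At an unadjusted p under 0.05, 5 of 8 were higher in the first comparison against 13.5% of all genes, and 6 of 8 in the second against 5.37%. Non-overlapping arrays with the oncogene group higher were seen for 0 of 8 genes in the first comparison (0.157% of all genes) and for 2 of 8 in the second (0.34%). The median change over the 8 genes was 1.16 in the first comparison, where that of all genes was 0.15, and 1.45 in the second, where that of all genes was -0.02. Because the genes were chosen with earlier results of these data known, such counts, here and below, are a description and no independent test of the set.

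**Figure D2:**
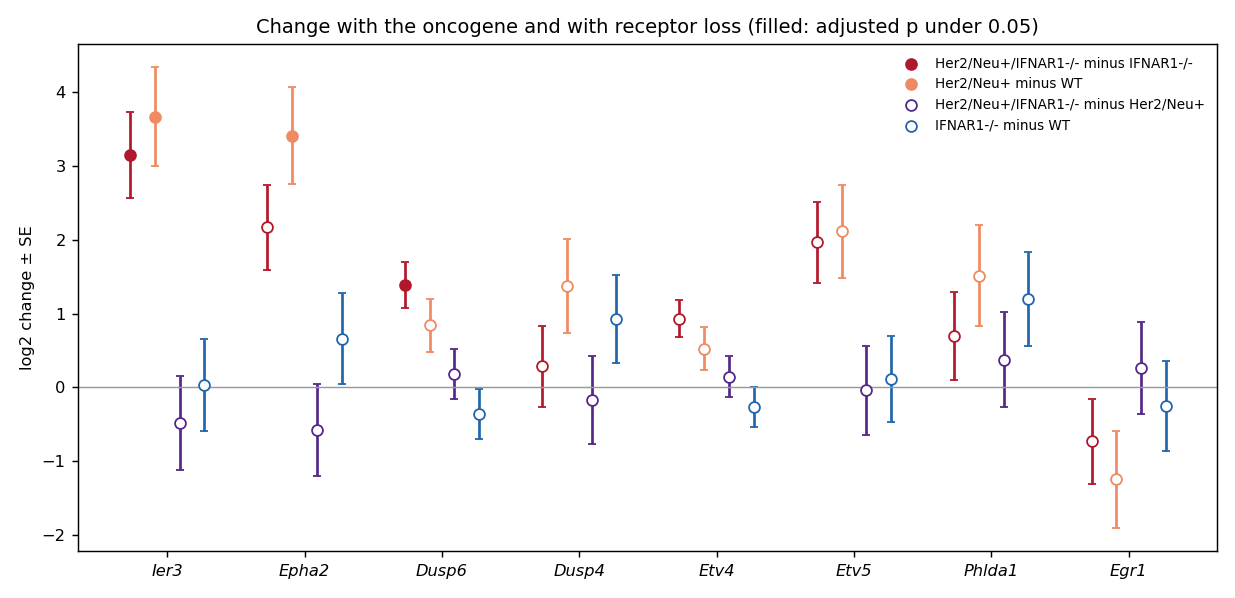
Log2 change ± SE from the limma fit for the 8 tested genes in 4 comparisons, with filled circles where the adjusted p was under 0.05. The 2 oncogene comparisons lie at 3.15 and 3.67 for Ier3, and the 2 comparisons on receptor loss lie within 1.2 of 0 for every gene.

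The oncogene change averaged over both receptor states uses all 30 arrays, 15 with and 15 without the oncogene, and so shares its arrays with the comparisons above. Ier3 rose by 3.41 ± 0.45 (SE, log2 scale), or 10.6-fold (limma adjusted p = 6.4e-05), and 13 of the 15 arrays with the oncogene lay above all 15 without it. Epha2 rose by 2.79 ± 0.44, or 6.93-fold (limma adjusted p = 0.000513), again with 13 of 15 arrays above all others. Etv5 rose by 2.04 ± 0.42, or 4.12-fold, with 12 of 15 such arrays (limma adjusted p = 0.00959). The arrays with the oncogene that did not stand above all others were Her2/Neu+/IFNAR1-/- 102 and 104 for Ier3, and Her2/Neu+/IFNAR1-/- 103 and 104 for Epha2. Dusp6 rose by 1.11 ± 0.24, or 2.16-fold, with 9 of 15 arrays above all others, and Etv4 by 0.73 ± 0.19, or 1.66-fold, with 8 of 15 (limma adjusted p = 0.0129 and 0.0418). Phlda1 (1.10 ± 0.45), Dusp4 (0.83 ± 0.42) and Egr1 (-0.99 ± 0.44) did not pass (limma adjusted p = 0.184, 0.283 and 0.215). Their unadjusted limma p-values were 0.0215, 0.0580 and 0.0306. In all 5 of 8 rose and none fell, where 1.71% of all genes rose and 2.57% passed in either direction, and the median change was 1.11 over the 8 genes and 0.07 over all genes.

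These calls did not rest equally on the arrays. With the slide as a random block the averaged rise passed for Ier3 (3.29), Epha2 (2.74), Etv5 (1.97, adjusted p = 0.0392) and Dusp6 (1.08, adjusted p = 0.0496), and was lost for Etv4 (0.72, adjusted p = 0.108). Etv4 was also lost in 16 of the 30 fits that left out 1 array (adjusted p up to 0.0781) and when only its more variable probe was used (0.90, adjusted p = 0.153). In all it was lost in 11 of 18 other alternatives, among them quantile normalization (adjusted p = 0.0657), array weights (0.0596), array position as a covariate (0.0544), repeated values missing (0.0841), without the last slide (0.0958), without the 25% of probes that varied least (0.0620) and without the arrays of most repeated values (0.255). Within array set 1 the averaged changes were 3.14 for Ier3, 2.70 for Epha2, 2.82 for Etv5, 1.31 for Dusp6 and 0.95 for Etv4, and none passed there. Within array set 2 they were 3.42 for Ier3, 2.62 for Epha2, 0.97 for Etv5, 0.83 for Dusp6 and 0.58 for Etv4, with Ier3 and Epha2 passing (adjusted p = 0.00519 and 0.0145). All 5 were positive in both sets, and the estimates of Etv5, Dusp6 and Etv4 differed by more than 1.5 times between the sets. The averaged Dusp6 call was also lost without the arrays of most repeated values (1.07, adjusted p = 0.0639). In Her2/Neu+ against WT glands Etv5 stood at 3.32 in set 1 and 0.12 in set 2, where 2 arrays are Her2/Neu+. Dusp6 stood at 1.14 and 0.27 in the same sets.

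Loss of the receptor was compared with and without the oncogene, which asks what interferon signalling contributes to these genes. None of the 8 passed in Her2/Neu+/IFNAR1-/- against Her2/Neu+ glands, where 0.0785% of all genes did, or in IFNAR1-/- against WT glands, where 0.0262% did. At an unadjusted p under 0.05 the count was also 0 of 8 in both, against 11.2% and 6.87% of all genes. With the oncogene the largest estimates were -0.58 ± 0.62 (SE) for Epha2, with a 95% interval from -1.86 to 0.70, and -0.48 ± 0.64 for Ier3, from -1.79 to 0.82 (limma adjusted p = 0.719 and 0.775). Without the oncogene they were 1.2 ± 0.64 for Phlda1, from -0.11 to 2.50, and 0.93 ± 0.59 for Dusp4, from -0.29 to 2.15 (limma adjusted p = 0.762 and 0.794). These intervals leave room for changes of about the size seen for Dusp6 and Etv4 with the oncogene, so the comparisons do not show that receptor loss left the genes alike.

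Whether the oncogene changed a gene by a different amount without the receptor was tested by the interaction, the change in Her2/Neu+/IFNAR1-/- against IFNAR1-/- minus that in Her2/Neu+ against WT. None of the 8 genes passed, where 0.0174% of all genes did, and 0 of 8 had an unadjusted p under 0.05, against 9.62% of all genes. Epha2 had the largest estimate, -1.24 ± 0.87 (SE), with a 95% interval from -3.03 to 0.55 (limma adjusted p = 0.614). For Ier3 the interval ran from -2.35 to 1.30 and for Dusp6 from -0.43 to 1.51. Thus Dusp6 passed only with the receptor absent and Epha2 only with it present, but neither difference between the receptor states passed a test.

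Other genes of the pathway were taken from 5 lists. Of 39 further listed ERK targets 31 were measured, and in the averaged oncogene comparison 2 rose, Etv1 and Trib1, and none fell, where 1.71% of all genes rose. The median change was 0.37 over these 31 genes and 0.07 over all genes. Etv1, the third ETS factor of the family that holds Etv4 and Etv5, had its lowest, median and highest values at -2.69, -0.42 and 1.76 in Her2/Neu+/IFNAR1-/- glands, -2.79, 0.57 and 1.46 in Her2/Neu+ glands, -3.07, -2.44 and -1.54 in IFNAR1-/- glands and -5.34, -2.15 and -1.58 in WT glands. The low ends in the groups with the oncogene are Her2/Neu+/IFNAR1-/- 104 and Her2/Neu+ 114, arrays that were also low for Etv5 and Epha2. Etv1 rose by 2.41 ± 0.45 (SE), or 5.33-fold (limma adjusted p = 0.00382), but passed neither within array set 1 (3.00, adjusted p = 0.242) nor within set 2 (1.38, adjusted p = 0.111). Trib1, a pseudokinase that binds MEK, averaged 0.18 ± 1.19 (SD, n = 9) in Her2/Neu+/IFNAR1-/-, 0.27 ± 0.54 (n = 6) in Her2/Neu+, -0.98 ± 0.54 (n = 8) in IFNAR1-/- glands, with -1.12 ± 0.40 (n = 7) in those of WT. It rose by 1.28 ± 0.28 (SE, limma adjusted p = 0.0161), and passed neither within set 1 (0.99, adjusted p = 0.528) nor within set 2 (1.48, adjusted p = 0.0692). Fosl1, an AP-1 subunit, had the next largest estimate in that list at 1.45 ± 0.51 (adjusted p = 0.120), and Phlda3 and Ets2 the lowest at -0.44 ± 0.33 and -0.32 ± 0.20.

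None of the 13 measured genes of the RAS to ERK cascade (22 listed) and none of the 15 measured inhibitors (18 listed) passed in the averaged comparison. In the cascade the estimates ran between those of Nras (0.39 ± 0.21, SE) and Elk3 (0.30 ± 0.15) at the top and those of Araf (-0.31 ± 0.25) and Rps6ka3 (-0.16 ± 0.32) at the bottom. Among the inhibitors Dusp7 (0.74 ± 0.31) and Spred1 (0.65 ± 0.25) stood highest and Ptpn11 (-0.47 ± 0.17) and Spry1 (-0.42 ± 0.36) lowest. The medians of both lists, 0.10 and 0.11, were near that of all genes, 0.07. Of the other Eph receptors and ephrins 9 of 15 were measured and none passed, with Efnb2 (0.64 ± 0.26) and Efna5 (0.57 ± 0.29) highest and Efnb1 (-0.24 ± 0.25) and Efna3 (-0.12 ± 0.51) lowest. Of the ERBB receptors Erbb2, at 0.09 ± 0.18, and Egfr, at 0.28 ± 0.18, were measured and did not pass. The 10 probes of Erbb2 may not detect the transgene. In the 2 pairwise oncogene comparisons no gene of these 5 lists passed.

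Within groups, several of these genes varied together from array to array. For each pair of the 8 genes, and for each gene with the luminal and with the basal markers, the deviations from the group means were correlated over the arrays, with p-values from permutations within groups and adjusted over the 44 relations. Of the 28 pairs of genes 11 passed by Pearson's r. The share for pairs of other genes, or for other genes with these markers, was not computed. Dusp6, Epha2, Etv4, Etv5 and Phlda1, a set picked after these values were seen, correlated with each other in all 10 pairs, with r between 0.50 and 0.84. The closest pair was Etv5 and Phlda1 (r = 0.84, Spearman's rho = 0.80, permutation adjusted p = 8.8e-05 and 0.00022, 30 arrays), and r was 0.81 without the 2 arrays farthest from the median of Etv5. The weakest was Dusp6 and Etv4 (r = 0.50, rho = 0.41, permutation adjusted p = 0.0419 and 0.0974). Its r dropped to 0.33 without Her2/Neu+/IFNAR1-/- 104 and 105, the 2 arrays farthest from the median of Dusp6, and was 0.56 in set 1 and 0.53 in set 2. Within array set 1 the 10 correlations ran from 0.56 to 0.97 and within set 2 from 0.39 to 0.82.

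The other 3 genes passed with few or none of this group. Ier3, which had the largest change with the oncogene, reached r = 0.50 with Dusp6 and 0.49 with Epha2 (rho = 0.43 and 0.39), and neither passed (permutation adjusted p of r = 0.0581 and 0.0727, of rho = 0.0867 and 0.144). For Ier3 and Dusp6 r was as high as for Dusp6 and Etv4, a pair inside the group. Within array set 1 r of Ier3 was 0.75 with Dusp6 and 0.67 with Epha2, and within set 2 it was 0.49 and 0.36. Dusp4 had r between -0.12 and 0.17 with every other gene over 28 arrays, and none passed. These values depended on the arrays: within array set 2 r was 0.59 with Etv5, 0.57 with Epha2 and 0.43 with Etv4, against -0.23, -0.04 and -0.11 within set 1. Without Her2/Neu+/IFNAR1-/- 103 and 106, r was 0.31 with Epha2, 0.34 with Phlda1 and 0.36 with Egr1. Egr1 passed with 1 of 7 genes by r, Phlda1 (r = 0.43, rho = 0.43, permutation adjusted p = 0.0408 and 0.0645), and with Dusp6 by rho (r = 0.35, rho = 0.47, permutation adjusted p = 0.100 and 0.0375).

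**Figure D3:**
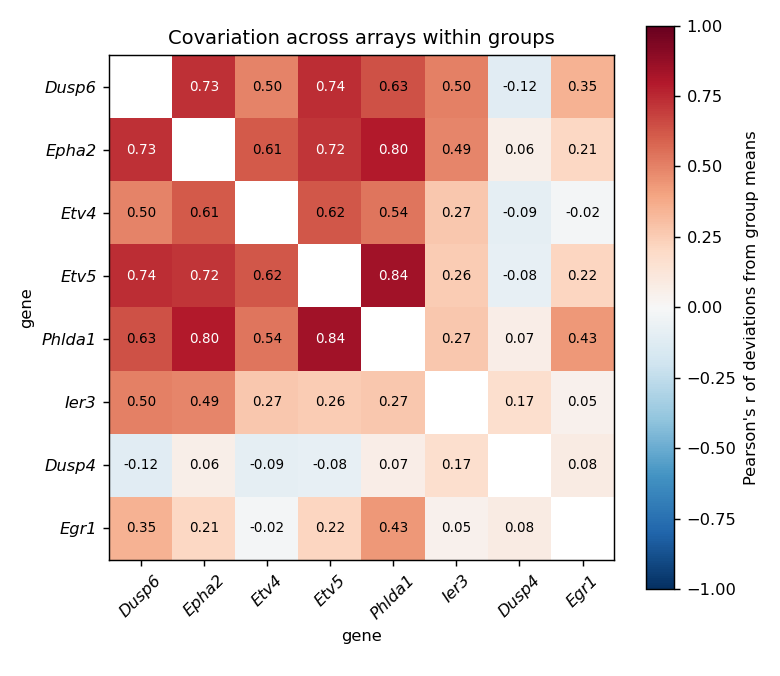
Pearson's r between genes over the arrays, computed on deviations from the group means, with colour and printed value for each pair of the 8 tested genes. The block of Dusp6, Epha2, Etv4, Etv5 and Phlda1 holds values from 0.50 to 0.84, and the row of Dusp4 holds values from -0.12 to 0.17.

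Markers of luminal epithelial cells moved with several of these genes. Of 16 listed markers 11 were measured, and their mean on each array ran from 0.92 to 3.70 in Her2/Neu+/IFNAR1-/-, from -0.08 to 3.29 in Her2/Neu+, from 1.05 to 3.69 in IFNAR1-/- and from 1.85 to 2.99 in WT glands. The mean over arrays was 2.76 ± 0.89 (SD, n = 9) in Her2/Neu+/IFNAR1-/-, 2.44 ± 1.28 (n = 6) in Her2/Neu+, 2.67 ± 1.04 (n = 8) in IFNAR1-/- and 2.42 ± 0.45 (n = 7) in WT, so the luminal markers overlapped between all groups. Epcam, a surface protein of epithelial cells, was the 1 luminal marker that rose in the averaged oncogene comparison (2.10 ± 0.55, SE, limma adjusted p = 0.0388), and none fell. The changes of 8 of the 11 luminal markers were above 0. Foxa1 averaged 3.11 in Her2/Neu+/IFNAR1-/-, 2.43 in Her2/Neu+, 4.11 in IFNAR1-/- and 4.47 in WT glands. Krt19 averaged 0.79, -0.42, 2.06 and 1.15 in the same order, so both were lower on average with the oncogene. Of 8 measured basal markers (10 listed) Krt14, Acta2 and Tagln fell, by 1.67, 0.86 and 0.99 on the log2 scale. Over all genes 2.57% passed in either direction. Trp63 was the 1 basal marker with a change above 0. It averaged 0.87 in Her2/Neu+/IFNAR1-/-, 0.46 in Her2/Neu+, -0.09 in IFNAR1-/- and 0.25 in WT glands. Krt14 had 6 values in Her2/Neu+/IFNAR1-/- glands, near 0 on average (0.05 ± 0.21, SD). In Her2/Neu+/IFNAR1-/- against IFNAR1-/- glands, where Ier3 and Dusp6 rose, Krt14 fell by 2.47 (limma adjusted p = 0.0413). Of 10 measured leukocyte markers (13 listed) 1 passed in the averaged comparison, Csf1r, a receptor of macrophages, which fell by 0.75. The changes of 7 of these 10 were above 0. Adgre1, another macrophage marker, averaged 0.90 in Her2/Neu+/IFNAR1-/-, 0.37 in Her2/Neu+, 0.44 in IFNAR1-/- and 0.09 in WT glands. The calls of Epcam, Krt14, Acta2, Tagln and Csf1r were lost with the slide as a random block (adjusted p between 0.0813 and 0.120), and their part in the changes of the ERK genes was not tested. The means of the basal list averaged 1.46 ± 0.80 (SD) in Her2/Neu+/IFNAR1-/-, 1.07 ± 0.84 in Her2/Neu+, 2.10 ± 0.93 in IFNAR1-/- glands, with 1.72 ± 0.55 in those of WT.

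Within groups Phlda1 followed the luminal mean most closely of these genes, with r = 0.88 and rho = 0.85 (permutation adjusted p = 8.8e-05 and 0.000147). How many genes outside the list follow it as closely was not computed. For Phlda1 r was 0.81 without Her2/Neu+ 114 and Her2/Neu+/IFNAR1-/- 103, the 2 arrays farthest from the median of the luminal mean, and it was 0.80 in array set 1 and 0.93 in set 2. For Epha2 r was 0.71 and rho 0.74 (permutation adjusted p = 8.8e-05 and 0.000147), with r of 0.62 without those 2 arrays, 0.72 in set 1 and 0.69 in set 2. For Etv5 r was 0.71 and rho 0.61 (permutation adjusted p = 8.8e-05 and 0.00365), with r of 0.60 without them, 0.84 in set 1 and 0.63 in set 2. The array with the lowest luminal mean, Her2/Neu+ 114 at -0.08, was also the lowest of its group for Phlda1 (-3.24), Epha2 (-1.32) and Etv5 (-0.72).

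The remaining genes followed the luminal mean less closely. Dusp6 had r = 0.56 and rho = 0.54 (permutation adjusted p = 0.0044 and 0.0114), with r of 0.44 without the 2 farthest arrays, 0.69 in set 1 and 0.28 in set 2. Egr1 had r = 0.51 and rho = 0.47 (permutation adjusted p = 0.0195 and 0.0375), with r of 0.42 without those arrays, 0.43 in set 1 and 0.53 in set 2. Etv4 had r = 0.45 and rho = 0.45 (permutation adjusted p = 0.0351 and 0.044), with r of 0.40 without them, 0.48 in set 1 and 0.60 in set 2. Ier3 (r = 0.19, rho = 0.27, permutation adjusted p = 0.419 and 0.277) and Dusp4 (r = -0.11, rho = 0.18, permutation adjusted p = 0.723 and 0.457) did not pass. With the basal mean, Phlda1 (r = 0.61) and Etv5 (r = 0.49) passed by r (permutation adjusted p = 0.0044 and 0.0202) and not by rho (0.43 and 0.34, permutation adjusted p = 0.0645 and 0.173).

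With the luminal mean of each array as a covariate in the limma fit, the averaged oncogene changes were 3.40 for Ier3, 2.75 for Epha2, 2.00 for Etv5, 1.09 for Dusp6 and 0.72 for Etv4, each within 0.05 of the value without it. Phlda1, at 1.04, passed in that fit (limma adjusted p = 0.0117), so 6 of 8 rose, where 2.51% of all genes rose and 3.59% passed in either direction. In Her2/Neu+/IFNAR1-/- against IFNAR1-/- glands 5 of 8 rose with the covariate, Ier3 (3.13), Epha2 (2.10), Etv5 (1.89), Dusp6 (1.35) and Etv4 (0.91), where 2.78% of all genes rose. In Her2/Neu+ against WT glands 3 of 8 rose, Ier3 (3.67), Epha2 (3.39) and Etv5 (2.10), where 0.236% of all genes rose. This fit was added after the correlations with the luminal markers had been seen. The luminal mean averaged 2.76 in Her2/Neu+/IFNAR1-/-, 2.44 in Her2/Neu+, 2.67 in IFNAR1-/- and 2.42 in WT glands. With group averages this close, the covariate could move the oncogene estimates little. The fit therefore cannot show whether epithelial content has a part in these changes, which was not tested.

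**Figure D4:**
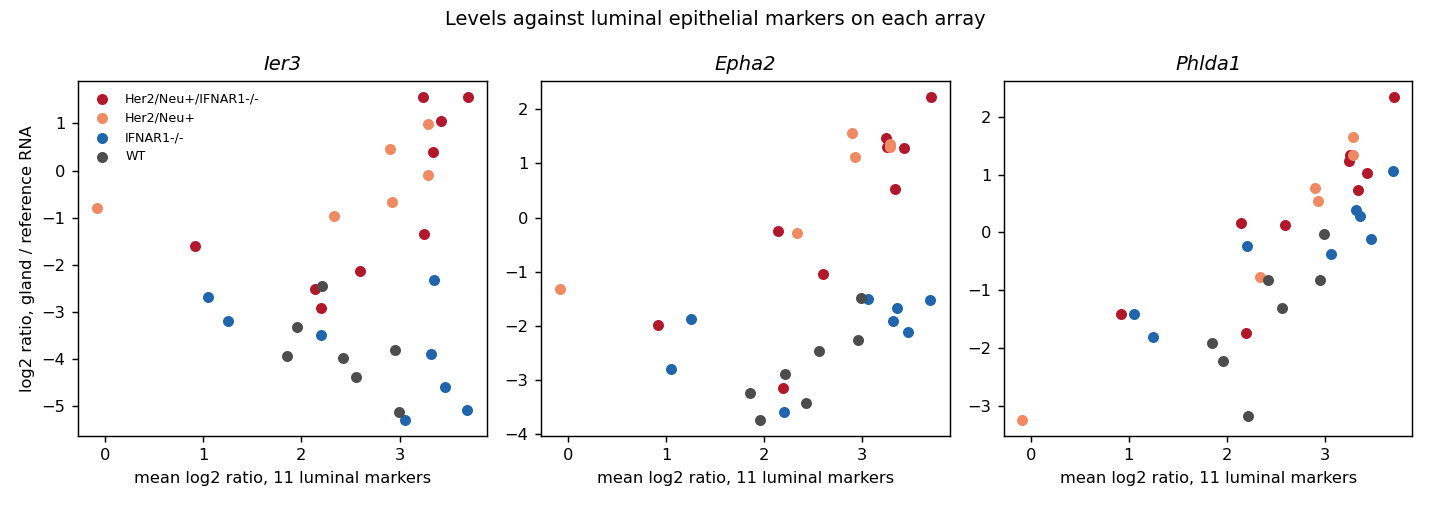
Log2 ratios of Ier3, Epha2 and Phlda1 against the mean log2 ratio of 11 luminal markers, 1 point per array, coloured by group. Phlda1 follows the luminal mean within groups (r = 0.88), while for Ier3 13 of the 15 arrays with the oncogene lie above all 15 without it.

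For each of the 5 genes that passed in a comparison, the genes with the most similar levels over the arrays were found by Pearson's r, which here includes the differences between groups and is given as a description. Ier3 was most like Car12 (r = 0.90), Oas1a (0.88), Car6 (0.88), Xbp1 (0.88) and Egln3 (0.87) over 30 arrays. Epha2 was most like Fblim1 (0.90), Bglap2 (0.89 over 27 arrays), Apol9b (0.89), Shf (0.88) and Socs2 (0.87). Etv5 shared Fblim1 (0.91) and Socs2 (0.90) with it and was further most like Trim8 (0.88), Fam20a (0.87) and Aldoc (0.87). Dusp6 was most like Socs2 (0.89), Fblim1 (0.87), Casp1 (0.86), Apol9a (0.84) and Apol9b (0.83). Etv4 had the lowest values, with Ifit3 (0.76), Oas1a (0.74), Papss1 (0.72), Apol9b (0.72) and Psmd5 (0.72). Socs2, a feedback inhibitor of cytokine signalling, and Fblim1, an adaptor of the actin cytoskeleton, were thus each among the 5 most similar genes of Dusp6, Epha2 and Etv5.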

How the data were processed

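The authors deposited log2 ratios of gland (Cy5) over reference (Cy3) for 20896 probes on 30 arrays. The dyes come from the labels, and base 2 was taken from the range of the values, none of which lies beyond -6 or 6. Background correction, normalization and the handling of blank and repeated values are not given in the sources used here, so no error from these steps can be estimated. Of the probes, 17376 carry 1 gene symbol, 0 carry several and 3520 none, per the deposited platform annotation. A probe needed values for at least 50% of each group's arrays, and probes of a gene were averaged.

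The group comparisons used limma 3.58.1 (R 4.3.3, lmFit and eBayes without a trend), with 1 mean per group over 30 arrays, two-sided, adjusted by Benjamini-Hochberg over 11463 genes, with a threshold of 0.05. The fit was tested on simulated data. Those data held no slide effect, no repeated values and no covariation between genes, so the test cannot judge how these affect the calls. Each p-value reflects only how far these samples spread, which may be technical. Correlations used 100000 permutations within groups, whose smallest p is 1e-05 (Python 3.11.15, scipy 1.17.1).

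Named are all members in each comparison, the genes of 5 further pathway lists that passed, the 2 highest and 2 lowest of each list (given here for the averaged oncogene comparison), and for members that passed the 5 genes of highest r among genes measured on at least 24 arrays with them. The members and lists were chosen with earlier results of these data known. Alternatives changed the normalization, filters, probe choice, groups in the fit, weights, batches and arrays. Those without arrays high in muscle markers, without arrays of over 9000 repeated values and with the luminal covariate were added after seeing the data.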

Additional observations from a re-analysis of the deposited data

Results flagged for a closer look

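In 34 groups of values of the 9 genes, 1 array of a group stood far from all others of that group in 2 cases. Chance alone gives this in about 1 in 20 groups. Etv5 was -2.70 on IFNAR1-/- 42, below the other 7 arrays of the group, which is also 1 of the 4 arrays high in skeletal muscle markers. Spry2 was 0.69 on WT 57, above the other 5 WT values, which are all repeated values between -0.18 and 0.08. What set these values apart was not tested.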

How the results depend on the processing

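The number of genes past the threshold among the 8 depended on the arrays and the fit in the oncogene comparisons, and the cause was not tested. In Her2/Neu+ against WT glands it was 2, and 0 at a threshold of 0.01, within array set 1 or 2 and with the slide as a random block, and between 0 and 2 when 1 array was left out, with 0 without Her2/Neu+ 118 and 1 without WT 54 or 56 or Her2/Neu+ 119 or 120. In Her2/Neu+/IFNAR1-/- against IFNAR1-/- glands it was 2, and 5 with only probes measured on every array, with array weights or with the luminal covariate, 4 with repeated values missing, 1 after quantile normalization, with array position as a covariate, without the arrays high in muscle markers or at a threshold of 0.01, and 0 with only the compared groups, within either array set, with the slide as a random block or without the arrays of most repeated values. When 1 array was left out it lay between 1 and 5, with 5 without Her2/Neu+/IFNAR1-/- 103, 4 without Her2/Neu+/IFNAR1-/- 104 or 106 or Her2/Neu+ 114 and 1 without Her2/Neu+/IFNAR1-/- 105, 108, 109 or 110 or IFNAR1-/- 44 or 46. Averaged over receptor states it was 5, and 0 in array set 1 alone, 2 in array set 2 alone, 3 without the arrays of most repeated values, 3 at a threshold of 0.01, 6 with the luminal covariate, 4 in 8 other alternatives that lost Etv4 and between 4 and 5 when 1 array was left out. For both comparisons on receptor loss and for the interaction it was 0 in every alternative run. Over all genes, the 15 that passed in Her2/Neu+ against WT became between 1 (array set 1) and 745 (array set 2), the 150 in Her2/Neu+/IFNAR1-/- against IFNAR1-/- between 2 (array set 1) and 390 (luminal covariate), and the 295 averaged over receptor states between 7 (array set 1) and 769 (array set 2). Those in IFNAR1-/- against WT, 3, ranged from 0 in limma in array set 2 to 25 with array weights, those in Her2/Neu+/IFNAR1-/- against Her2/Neu+, 9, from 2 to 903 in array sets 1 and 2, and those of the interaction, 2, from 0 in limma in several alternatives to 494 in array set 2.

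Of 2330 comparisons of a gene's change with an alternative, 2164 kept direction and side of the threshold, 65 lost a call, 25 gained one and 76 changed sign. None of the 76 was past the threshold under its alternative. With array position as a covariate the change was 0.15 for Etv5 in receptor loss with the oncogene. In array set 1 alone the change was -0.36 for Dusp6, 0.19 for Dusp4, -0.96 for Phlda1 and -0.47 for Egr1 in receptor loss with the oncogene, 0.28 for Egr1 in receptor loss without the oncogene and -0.76 for Egr1 in the interaction. In array set 2 alone the change was -0.0033 for Phlda1 in Her2/Neu+ minus WT, 0.27 for Dusp4, 1.45 for Etv5 and 0.66 for Epha2 in receptor loss with the oncogene, -0.26 for Etv5 and -0.29 for Ier3 in receptor loss without the oncogene and 1.71 for Etv5, 0.20 for Ier3, 0.12 for Epha2 and 1.23 for Phlda1 in the interaction. With array set as a block the change was 0.17 for Dusp4 in receptor loss with the oncogene. With array weights the change was -0.0013 for Dusp6 and -0.11 for Phlda1 in receptor loss with the oncogene, -0.048 for Etv5 and 0.23 for Egr1 in receptor loss without the oncogene and -0.22 for Egr1 in the interaction. With the luminal marker mean as a covariate the change was -0.11 for Etv5 and -0.029 for Ier3 in receptor loss without the oncogene. With the probe of largest SD the change was -0.17 for Etv4 in receptor loss with the oncogene. After quantile normalization the change was -0.17 for Egr1 in receptor loss with the oncogene and -0.14 for Egr1 in the interaction. With repeated values missing the change was -0.0504 for Etv4 in receptor loss with the oncogene, -0.23 for Etv5 and -0.12 for Ier3 in receptor loss without the oncogene and 0.19 for Etv5 and 0.014 for Ier3 in the interaction. Without the arrays high in muscle markers the change was 0.11 for Dusp4 and 0.052 for Etv5 in receptor loss with the oncogene and -0.0196 for Ier3 and 0.22 for Egr1 in receptor loss without the oncogene. Without the arrays of most repeated values the change was -0.40 for Dusp6, -0.14 for Etv4, -0.88 for Phlda1 and -0.30 for Egr1 in receptor loss with the oncogene and -0.037 for Dusp6 and -0.053 for Egr1 in the interaction. Without the last slide the change was -0.088 for Dusp6, -0.32 for Phlda1 and -0.32 for Egr1 in receptor loss with the oncogene, -0.052 for Ier3 and 0.22 for Egr1 in receptor loss without the oncogene and -0.54 for Egr1 in the interaction. With 1 array left out, 8 changes crossed 0 at their lowest and highest values: -0.66 and 0.17 for Dusp4, -0.43 and 0.25 for Etv5 and -0.28 and 0.70 for Phlda1 for receptor loss with the oncogene, -0.21 and 0.56 for Dusp4 in Her2/Neu+/IFNAR1-/- minus IFNAR1-/-, -0.51 and 0.22 for Egr1, -0.23 and 0.39 for Etv5 and -0.18 and 0.27 for Ier3 in IFNAR1-/- minus WT, and -0.54 and 0.19 for Etv5 in the interaction.

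No paired analysis was possible because the sample numbers are not shared between groups. The rises of Ier3 and Epha2 averaged over receptor states were lost only in array set 1 alone among the alternatives run, at 3.14 and 2.70.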
